A study of Rattus norvegicus with 144 samples.

Results

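The matrix, integrin and metalloprotease genes described here are the genes whose annotated symbol marks a collagen, a laminin chain, an integrin subunit, a matrix metalloprotease (MMP), a tissue inhibitor of metalloproteases (TIMP) or an ADAMTS protease. They were selected by symbol, a rule that uses no measured value of a gene, and 1 further collagen gene was not analysed here. The symbols gave 61 genes on 91 probes, among 18978 gene rows in all: 14 collagens, 5 laminins, 15 integrins, 17 MMPs, 2 TIMPs and 4 ADAMTS proteases. The remaining 4, Itgb1bp1, Itgb1bp2, Itgb3bp and Itgbl1, carry an integrin-like symbol and are not integrins.

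Liver RNA was measured on 2-colour arrays after acetaminophen, a painkiller that injures hepatocytes at high dose. Male F344/N rats aged 10 to 12 weeks received the drug by gavage at 0, 150, 1500 or 2000 mg/kg, split into 2 doses to aid uptake. The carrier, also given alone to the vehicle rats, was 0.5% ethyl cellulose. The left lobe was taken at 3, 6 or 24 h, giving 12 groups of 6 rats. Each rat was hybridised on 2 arrays of exchanged dyes against a pool of the 6 vehicle rats of its own time, so that the vehicle rats are also part of the pool. The values below are log2 ratios of a rat to this pool, and each difference is a dose group minus the vehicle rats of the same time, ± SE from limma with 6 rats a group. This SE rests on a variance pooled over all 12 groups. It is too small where the compared rats spread more than that, as for Mmp3 and Mmp12 at 24 h. The 1500 and 2000 mg/kg comparisons share their vehicle rats. A gene is said to have risen or fallen only where limma's p, adjusted by Benjamini-Hochberg over all gene rows, was under 0.05. The deposited values state neither the base of their logarithm nor the direction of the ratio: base 10 was assumed, and Cy5 over Cy3 was taken as likely because it puts genes known to respond to the drug higher at high dose (Hmox1 by 2.44 ± 0.50 and Nqo1 by 2.16 ± 0.16 at 24 h after 2000 mg/kg). Another base would rescale every difference, and the other direction would turn every sign.

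Liver matrix is made chiefly by hepatic stellate cells, portal fibroblasts and sinusoidal endothelial cells, and its basement-membrane part joins type IV collagens to laminins. Integrins are paired receptors that hold cells to it. MMPs and ADAMTS proteases cut matrix and cell-surface proteins, TIMPs block them, and several secreted MMPs are genes that inflammatory signals switch on. In whole liver, fewer cells of a type and less RNA per cell cannot be told apart.

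A run of neighbouring MMP genes on rat chromosome 8 held the genes with the largest rises, Mmp3 and Mmp12. In the RefSeq annotation it has 10 protein-coding genes in the order Mmp13, Mmp12, Mmp1b, Mmp3, Mmp1, Mmp10, Mmp8, Mmp27, Mmp20 and Mmp7, all of them MMPs, and 7 were measured. The bases just before their transcription starts are shown because Mmp3, Mmp12, Mmp10, Mmp13 and Mmp8 are the genes that rose, while their neighbours Mmp1 and Mmp7 were not called at any time. Capitals mark TGAGTCA or its reverse complement TGACTCA, the core of the AP-1 site. They also mark TATAAA, the core of the TATA box, or its reverse complement TTTATA. In Mmp8 only TTTATA is marked, so that its TATAAA runs against the direction of the gene. Sequences are RefSeq, build GRCr8, plus strand.
Mmp13 (chr8:12782709-12782828): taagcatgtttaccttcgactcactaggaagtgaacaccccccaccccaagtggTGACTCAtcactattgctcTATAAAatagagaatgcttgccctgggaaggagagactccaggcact
Mmp12 (chr8:12866532-12866651): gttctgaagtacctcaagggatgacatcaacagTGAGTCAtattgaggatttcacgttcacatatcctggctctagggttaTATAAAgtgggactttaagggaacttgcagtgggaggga
Mmp3 (chr8:12925161-12925280): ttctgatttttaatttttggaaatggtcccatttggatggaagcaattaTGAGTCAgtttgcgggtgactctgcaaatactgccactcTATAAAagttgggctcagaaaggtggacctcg
Mmp1 (chr8:12943333-12943452): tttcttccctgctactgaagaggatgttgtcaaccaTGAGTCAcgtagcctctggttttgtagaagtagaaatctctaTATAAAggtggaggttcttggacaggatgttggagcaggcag
Mmp10 (chr8:12974587-12974706): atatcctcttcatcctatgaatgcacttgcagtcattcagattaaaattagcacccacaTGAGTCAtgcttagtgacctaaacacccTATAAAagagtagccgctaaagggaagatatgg
Mmp8 (chr8:13008770-13008889): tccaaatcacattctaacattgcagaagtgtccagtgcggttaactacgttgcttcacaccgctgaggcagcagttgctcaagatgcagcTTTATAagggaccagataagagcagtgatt
Mmp7 (chr8:13132923-13133042): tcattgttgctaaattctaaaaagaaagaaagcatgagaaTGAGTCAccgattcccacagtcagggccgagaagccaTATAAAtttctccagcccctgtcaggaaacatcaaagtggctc

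TGAGTCA, on either strand, stood within 250 bases before the start in 6 of the 47 genes that have an entry among the 61, namely Mmp13, Mmp12, Mmp3, Mmp1, Mmp10 and Mmp7, against 3.98% of 27457 rat promoters. All 6 belong to the chromosome 8 run and to the same gene family. They are not independent genes, and the share describes this run rather than the 47. TATAAA, on either strand, stood there in 11 of the 47, against 13.1% of all promoters. The pair of genes that were not called at any time, Mmp1 and Mmp7, hold both motifs, and Mmp8 holds no TGAGTCA in that window. A motif match describes these letters only.

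At 24 h Mmp3, stromelysin-1, which cuts many matrix proteins and activates other MMPs, rose more than any other gene of the 61. Its lowest, median and highest ratios were 0.04, 2.09 and 5.04 at 1500 mg/kg and 0.14, 2.35 and 4.25 at 2000 mg/kg, against -0.25, -0.10 and 0.16 in vehicle rats. In each dosed group 5 of the 6 rats lay above every vehicle rat, and the sixth lay among them. The differences were 2.37 ± 0.47 (5.19-fold, limma adjusted p = 8.19e-05) at 1500 mg/kg and 2.41 ± 0.47 (5.30-fold, limma adjusted p = 5.38e-05) at 2000 mg/kg. The dosed rats were far less alike than the vehicle rats, with an SD of 1.95 at 1500 mg/kg and 1.73 at 2000 mg/kg, against 0.16 in vehicle rats. When only the compared groups were fitted, the limma adjusted p was 0.0733 at 1500 mg/kg, which ends that call, and 0.0288 at 2000 mg/kg.

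Mmp12, macrophage elastase, had lowest, median and highest ratios of -0.60, 0.46 and 3.17 at 1500 mg/kg and -0.80, 0.95 and 3.61 at 2000 mg/kg, against -1.17, -0.44 and -0.12 in vehicle rats. It rose by 1.49 ± 0.43 (limma adjusted p = 0.00675) at 1500 mg/kg and by 1.51 ± 0.43 (limma adjusted p = 0.00528) at 2000 mg/kg. The groups overlapped at both doses, and 3 rats of each dosed group stood above 1. Mmp10, stromelysin-2, had ratios of -0.40, 1.17 and 3.63 at 1500 mg/kg and 0.00, 0.19 and 3.68 at 2000 mg/kg, against -0.05, 0.11 and 0.71 in vehicle rats. It rose at 1500 mg/kg by 1.20 ± 0.40 (limma adjusted p = 0.023), and the difference at 2000 mg/kg was 0.84 ± 0.40 (limma adjusted p = 0.125). Mmp13, collagenase-3, rose at 1500 mg/kg by 0.63 ± 0.20 (limma adjusted p = 0.0133), with a difference of 0.41 ± 0.20 at 2000 mg/kg. Its rats split into 3 at or above 1.09 and 3 at or below 0.11 at 1500 mg/kg, against -0.30 to 0.33 in vehicle rats. Mmp8, neutrophil collagenase, rose at 1500 mg/kg by 0.64 ± 0.24 (limma adjusted p = 0.0428), with a difference of 0.57 ± 0.24 at 2000 mg/kg, but 7 of its 12 array values at 1500 mg/kg, 8 of 12 at 2000 mg/kg and 9 of 12 in vehicle rats were listed as exactly 0.

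Among the dosed rats the same few were highest for most of these 5 neighbours. At 1500 mg/kg rats 7075, 9537 and 8194 were the highest 3 for Mmp3, Mmp12, Mmp10 and Mmp13, and rats 7075 and 9537 the highest for Mmp8. At 2000 mg/kg rats 5889 and 8089 were the highest for Mmp3, Mmp12, Mmp10 and Mmp13, and rat 2015 came next for Mmp3, Mmp12 and Mmp10. For Mmp8 only rat 5889 was high there, at 2.18, with rat 8089 at 0.16 and the next rat at 0.00. The lowest rat for Mmp3, 0504 at 1500 mg/kg and 9540 at 2000 mg/kg, lay in the vehicle range. Without rat 7075 or without rat 9537 the 1500 mg/kg calls of Mmp12, Mmp10, Mmp13 and Mmp8 were lost, and without rat 8194 those of Mmp10 and Mmp13. The Mmp8 call was also lost without vehicle rat 0685 or 5999. Without rat 5889 the 2000 mg/kg difference of Mmp12 fell to 0.98 and its call was lost, whereas Mmp3 stayed called without any single rat, at 1.83 to 2.83 for 1500 mg/kg and 2.02 to 2.84 for 2000 mg/kg. When only the compared groups were fitted, Mmp12 had a limma adjusted p of 0.167 at 1500 mg/kg and 0.152 at 2000 mg/kg. At 1500 mg/kg Mmp10 then had a limma adjusted p of 0.293, Mmp13 of 0.152 and Mmp8 of 0.2. Some 24 h calls outside the run were also lost without these rats. Without rat 9537 those of Mmp2 and Itga7 at 1500 mg/kg were lost, and without rat 5889 those of Adamts1 and Mmp24 at 2000 mg/kg. Calls of other genes, such as Adamts7, held without any single rat. Whether the shared order of rats is particular to the run was not tested.

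**Figure D1:**
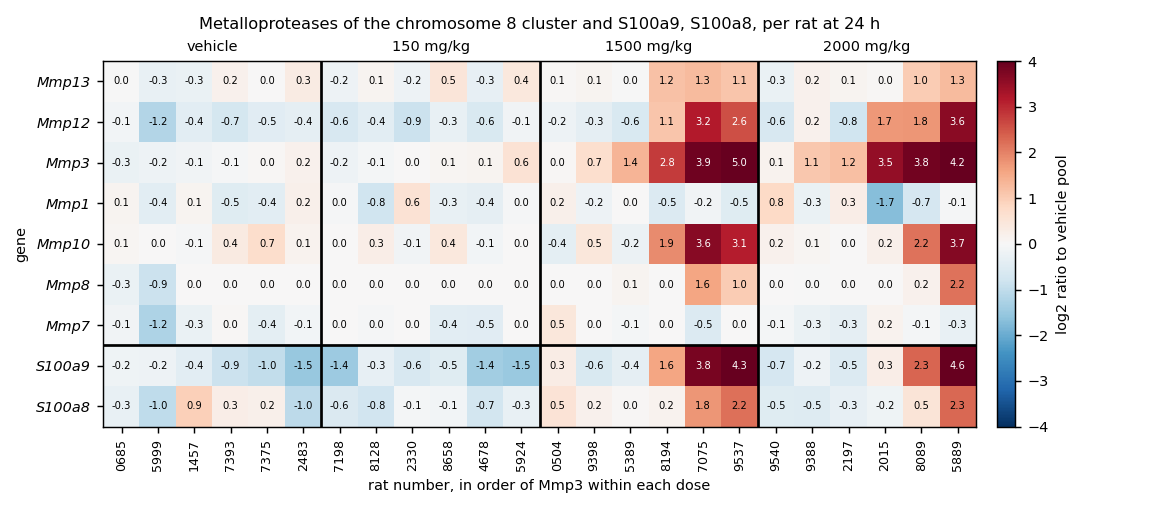
Log2 ratio to the vehicle pool of the 7 measured MMP genes of the chromosome 8 run, in chromosome order, and below the line of the neutrophil genes S100a9 and S100a8, in each of 24 rats at 24 h, with doses from vehicle on the left to 2000 mg/kg on the right and rats ordered by Mmp3 within a dose. At 1500 mg/kg rats 8194, 7075 and 9537 and at 2000 mg/kg rats 8089 and 5889 are high across Mmp13, Mmp12, Mmp3 and Mmp10, while in those 5 rats Mmp1 and Mmp7 lie between -0.68 and 0.03.

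S100a9, a neutrophil marker, was high in most of the same rats, and the other markers of the list followed it in part. S100a9 stood at 3.80 in rat 7075, 4.34 in rat 9537 and 1.58 in rat 8194 at 1500 mg/kg, and at 4.55 in rat 5889 and 2.32 in rat 8089 at 2000 mg/kg, and no other dosed rat at 24 h was above 0.31. Of the 4 neutrophil markers measured, 2 rose at 1500 mg/kg (S100a9 by 2.20 ± 0.54 and S100a8 by 0.96 ± 0.33) and 1 at 2000 mg/kg (S100a9 by 1.64 ± 0.54). Of all gene rows 10.2% were called higher at 1500 mg/kg and 11.8% at 2000 mg/kg. Whether these marker calls hold with a rat left out was not examined. The mean over the 4 markers per rat ranged from -0.13 to 1.86 at 1500 mg/kg and from -0.25 to 1.93 at 2000 mg/kg, against -0.55 to 0.22 in vehicle rats. S100a8 stood at 2.19 in rat 9537, 1.76 in rat 7075 and 2.29 in rat 5889, and at 0.50 in rat 8089. In rat 8194 S100a8 was 0.15, Cxcr2 -0.04 and Ncf1 0.05, within the range of the dosed rats with low MMPs. Rat 2015, which had an Mmp3 ratio of 3.50, had an S100a9 ratio of 0.26, and Cxcr2 was at most 0.22 in any rat at the 2 high doses. Rat 5889 also stood apart for 2 of the 4 measured bile-duct markers, with Cftr at 2.22 and Krt7 at 1.39, while its Krt19 was 0.39 and its Epcam 0.06. Its mean over the 4 was 1.01, where the 2000 mg/kg median was -0.12 and the vehicle rats ran from -0.11 to 0.13. Cftr varied widely in that group, standing at -1.96 in rat 2015, against -0.50 to 0.50 in vehicle rats. None of the 4 was called at 24 h. The part of these markers in the MMP values was not tested.

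Of the 17 MMPs measured, 6 rose and 3 fell at 24 h after 1500 mg/kg, and 4 rose and 2 fell after 2000 mg/kg. Over all gene rows 10.2% were called higher and 11.4% lower at 1500 mg/kg, and 11.8% higher and 12.5% lower at 2000 mg/kg, the background for every count at 24 h. In the chromosome 8 run, looked at as a group because of these values and so given no test, 5 of 7 rose at 1500 mg/kg with a median difference of 0.64, and 2 of 7 at 2000 mg/kg with a median of 0.57. The other 10 MMPs held 1 rise and 3 falls at 1500 mg/kg and 2 rises and 2 falls at 2000 mg/kg. Mmp1 differed by -0.04 ± 0.30 at 1500 mg/kg and -0.12 ± 0.30 at 2000 mg/kg. Mmp7 differed by 0.32 ± 0.21 at 1500 mg/kg and 0.20 ± 0.21 at 2000 mg/kg. No gene of the run was called at 3 h or 6 h. The change in the Mmp3 difference between 24 h and 6 h was itself past the threshold, at 2.57 ± 0.66 for 1500 mg/kg (limma adjusted p = 0.0066) and 2.72 ± 0.66 for 2000 mg/kg (limma adjusted p = 0.00267).

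Mmp14, the membrane-anchored protease that activates pro-MMP2, changed sign over the course. At 3 h its lowest, median and highest ratios were -1.12, -0.84 and -0.43 at 1500 mg/kg and -1.03, -0.93 and -0.67 at 2000 mg/kg, against -0.31, -0.15 and 0.43 in vehicle rats, so that no dosed rat reached the lowest vehicle rat. It fell by 0.74 ± 0.16 (limma adjusted p = 0.000879) at 1500 mg/kg and by 0.80 ± 0.16 (limma adjusted p = 0.000141) at 2000 mg/kg. At 24 h its ratios were 0.05, 0.58 and 1.11 at 1500 mg/kg and 0.15, 0.33 and 0.97 at 2000 mg/kg, against -0.45, 0.00 and 0.24 in vehicle rats, with overlap at both doses. It rose there by 0.60 ± 0.16 (limma adjusted p = 0.00293) at 1500 mg/kg and by 0.53 ± 0.16 (limma adjusted p = 0.00812) at 2000 mg/kg. Both of its probes gave these signs. The difference changed between 6 h and 24 h by 1.01 ± 0.22 at 1500 mg/kg (limma adjusted p = 0.00124) and by 1.16 ± 0.22 at 2000 mg/kg (limma adjusted p = 0.000117). When only the compared groups were fitted, the 24 h rise had a limma adjusted p of 0.0637 at 1500 mg/kg and 0.0667 at 2000 mg/kg, which ends both calls, whereas the 3 h fall stayed called.

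Mmp2, gelatinase A, whose proenzyme Mmp14 activates, fell at 24 h by 0.17 ± 0.06 at 1500 mg/kg and by 0.20 ± 0.06 at 2000 mg/kg (limma adjusted p = 0.0188 and 0.00461). The 1500 mg/kg call was lost without rat 7075, 8194, 9537 or 0685. Mmp2 had also fallen at 6 h after 2000 mg/kg, with a mean ratio of -0.27 against -0.06 in vehicle rats. That 6 h call held without any single rat, at -0.24 to -0.17, and in 6 of 11 other settings. Mmp9, gelatinase B, was not called at 24 h, with differences of 0.01 ± 0.06 at 1500 mg/kg and -0.02 ± 0.06 at 2000 mg/kg. It rose by 0.20 ± 0.06 at 6 h after 2000 mg/kg (limma adjusted p = 0.0184), a call lost without rat 5886 or 6930 and held in 4 of 11 other settings, whose values ran from 0.07 to 0.34. Mmp24, a membrane-type MMP, rose at 24 h after 2000 mg/kg by 0.79 ± 0.31 (limma adjusted p = 0.0487), with ratios of -0.63 to 2.60 against -0.17 to 0.49 in vehicle rats, and that call was lost without any of 9 single rats. Mmp23, a membrane-bound MMP, fell at 24 h after 1500 mg/kg by 0.43 ± 0.15 (limma adjusted p = 0.0308), and that call was lost without any of 8 single rats.

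**Figure D2:**
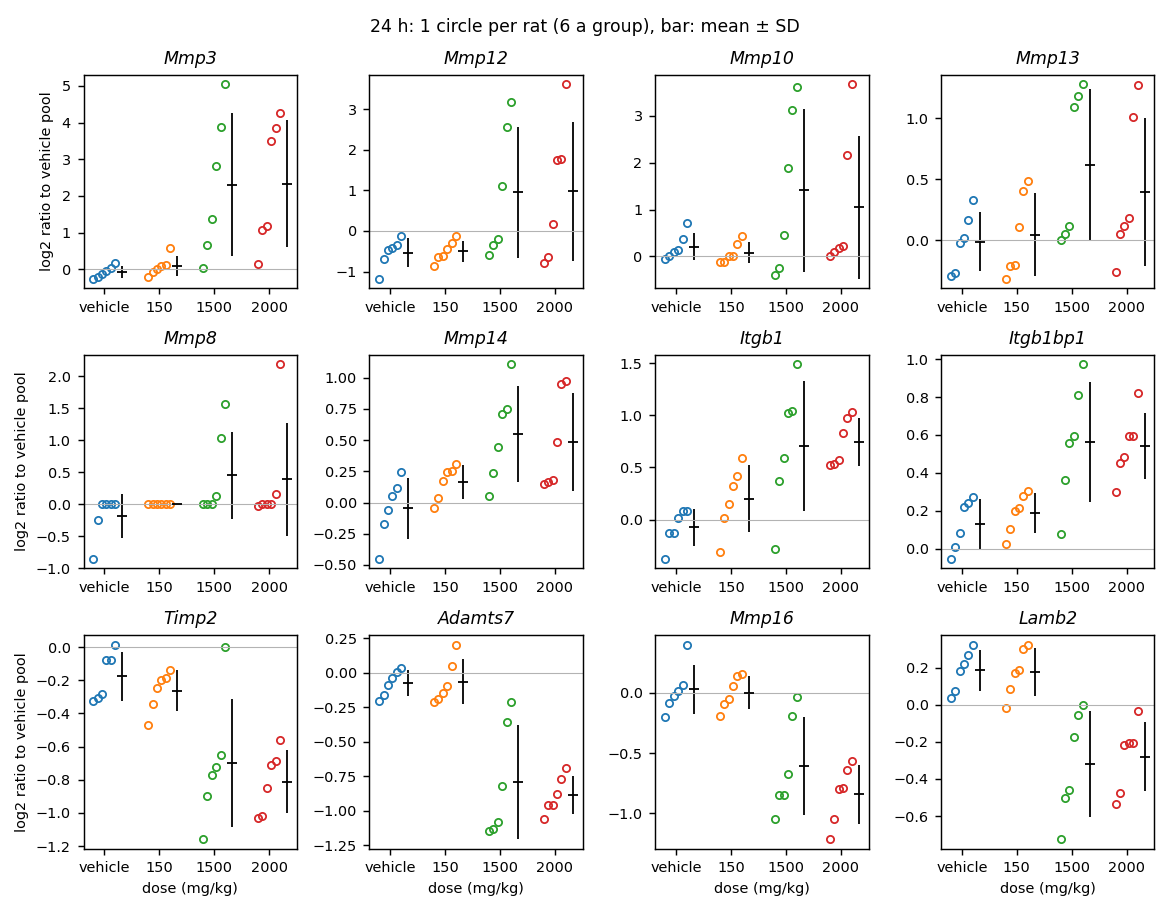
Log2 ratio to the vehicle pool at 24 h for 12 genes, 1 circle per rat and 6 rats a group, with doses from vehicle to 2000 mg/kg along each axis and a bar for mean ± SD beside each group. Mmp3, Mmp12, Mmp10, Mmp13 and Mmp8 spread widely among dosed rats, with Mmp3 from 0.04 to 5.04 at 1500 mg/kg, whereas Adamts7, Mmp16, Timp2 and Lamb2 at 2000 mg/kg lie below every vehicle rat.

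Adamts7, a secreted protease known for cutting cartilage oligomeric matrix protein, had lowest, median and highest ratios of -1.15, -0.95 and -0.21 at 1500 mg/kg and -1.06, -0.92 and -0.69 at 2000 mg/kg, against -0.21, -0.06 and 0.04 in vehicle rats. Every dosed rat lay below every vehicle rat at both doses, narrowly for rat 0504 of the 1500 mg/kg group, and the fall was 0.72 ± 0.11 (limma adjusted p = 1.03e-06) at 1500 mg/kg and 0.81 ± 0.11 (limma adjusted p = 4.09e-08) at 2000 mg/kg. It had fallen already at 6 h, by 0.61 ± 0.11 at 1500 mg/kg and 0.65 ± 0.11 at 2000 mg/kg (limma adjusted p = 8.47e-05 and 1.4e-05), and 1 rat of the 1500 mg/kg group stood at 0.02 there. At 3 h it differed by -0.26 ± 0.11 at 1500 mg/kg and -0.14 ± 0.11 at 2000 mg/kg, neither past the threshold.

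Mmp16, another membrane-type MMP, fell at 6 h by 0.52 ± 0.15 at 1500 mg/kg and 0.60 ± 0.15 at 2000 mg/kg (limma adjusted p = 0.0193 and 0.00348). The 6 h call at 1500 mg/kg was lost without rat 0644, 1376, 3942, 4550 or 8918, and it held in 5 of 10 other settings. At 24 h its ratios were -1.05, -0.76 and -0.03 at 1500 mg/kg and -1.21, -0.79 and -0.57 at 2000 mg/kg, against -0.20, -0.01 and 0.40 in vehicle rats. The 2000 mg/kg rats did not overlap with the vehicle rats and the 1500 mg/kg rats did. The fall at 24 h was 0.63 ± 0.15 (limma adjusted p = 0.000832) at 1500 mg/kg and 0.87 ± 0.15 (limma adjusted p = 4.8e-06) at 2000 mg/kg.

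Timp2, an inhibitor of MMPs that also takes part in the activation of pro-MMP2, had ratios of -1.16, -0.75 and 0.00 at 1500 mg/kg and -1.03, -0.78 and -0.56 at 2000 mg/kg, against -0.32, -0.18 and 0.02 in vehicle rats. One rat of the 1500 mg/kg group stood inside the vehicle range and no rat of the 2000 mg/kg group did. It fell by 0.52 ± 0.10 (limma adjusted p = 3.18e-05) at 1500 mg/kg and by 0.63 ± 0.10 (limma adjusted p = 5.69e-07) at 2000 mg/kg, and the change between 6 h and 24 h was past the threshold at both doses (-0.53 ± 0.14 at 1500 mg/kg and -0.57 ± 0.14 at 2000 mg/kg, limma adjusted p = 0.00641 and 0.00265). When only the compared groups were fitted, the 1500 mg/kg fall had a limma adjusted p of 0.0711. Timp3, the matrix-bound inhibitor, differed by 0.01 ± 0.11 at 1500 mg/kg and 0.08 ± 0.11 at 2000 mg/kg, with a 95% interval at 2000 mg/kg from -0.13 to 0.29, and was not called. Timp1 was not analysed here.

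Among the other ADAMTS proteases, Adamts9, a protease of cartilage and vessel proteoglycans, fell at 24 h after 2000 mg/kg by 0.75 ± 0.25 (limma adjusted p = 0.0183) and differed by -0.25 ± 0.25 at 1500 mg/kg. That call was lost without rat 9388.

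Laminins moved in both directions. Lamb2, the beta-2 chain, had 24 h ratios of -0.72, -0.32 and 0.00 at 1500 mg/kg and -0.53, -0.21 and -0.04 at 2000 mg/kg, against 0.04, 0.20 and 0.32 in vehicle rats, with no overlap at either dose. It fell by 0.50 ± 0.10 (limma adjusted p = 5.34e-05) at 1500 mg/kg and 0.47 ± 0.10 (limma adjusted p = 0.000153) at 2000 mg/kg. Lamb3, the beta-3 chain, fell by 0.24 ± 0.06 at 1500 mg/kg and 0.26 ± 0.06 at 2000 mg/kg (limma adjusted p = 0.000705 and 0.000261). Both falls had changed since 6 h at each dose by limma's test of that change. Lama5, the alpha-5 chain, was not called, with differences of -0.18 ± 0.11 at 1500 mg/kg and -0.01 ± 0.11 at 2000 mg/kg.

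Of the 14 collagens none rose at 24 h, while 2 fell at 1500 mg/kg and 4 at 2000 mg/kg, against 11.4% and 12.5% of all gene rows called lower at these doses. Col4a4, a basement-membrane type IV chain, fell by 0.69 ± 0.16 (limma adjusted p = 0.000671) at 1500 mg/kg and by 0.74 ± 0.16 (limma adjusted p = 0.000223) at 2000 mg/kg. Its ratios ran from -0.95 to 0.25 at 1500 mg/kg and from -1.07 to -0.18 at 2000 mg/kg, against -0.32 to 0.52 in vehicle rats, so that the groups overlapped. Col13a1, a membrane-spanning collagen, fell by 0.61 ± 0.16 at both doses (limma adjusted p = 0.0035 and 0.00318). Its SD was 0.62 at 1500 mg/kg and 0.42 at 2000 mg/kg, against 0.11 in vehicle rats. Each of these calls held in 9 of 11 other settings. Col17a1, a collagen of hemidesmosomes, and Col18a1, the basement-membrane collagen whose end piece is endostatin, fell at 2000 mg/kg by 0.72 ± 0.26 and 0.23 ± 0.07. At 1500 mg/kg Col17a1 differed by -0.59 ± 0.26 and Col18a1 by -0.17 ± 0.07, neither past the threshold, and at 150 mg/kg Col17a1 differed by -0.54. The 2000 mg/kg call of Col17a1 was lost without rat 9540, 1457, 2483 or 5999, and that of Col18a1 without rat 2015 or 7393. Neither of the fibrillar Col3a1 and Col5a1 was called. Col3a1 differed by -0.15 ± 0.19 at 1500 mg/kg and 0.08 ± 0.19 at 2000 mg/kg. Col5a1 differed by -0.24 ± 0.25 at 1500 mg/kg and -0.36 ± 0.25 at 2000 mg/kg. Col1a1, Col4a1 and Col4a2 were not analysed here.

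Of the 15 integrins, 1 rose at 24 h at each dose, while 2 fell at 1500 mg/kg and 3 at 2000 mg/kg. Of all gene rows 10.2% were called higher and 11.4% lower at 1500 mg/kg, and 11.8% and 12.5% at 2000 mg/kg, so that the integrin counts lie near the background. The one that rose was Itgb1, the beta-1 chain that pairs with most collagen- and laminin-binding alpha chains. Its 24 h ratios were -0.29, 0.81 and 1.49 at 1500 mg/kg and 0.52, 0.70 and 1.03 at 2000 mg/kg, against -0.38, -0.05 and 0.08 in vehicle rats. All rats of the 2000 mg/kg group lay above the vehicle rats, and 1 rat of the 1500 mg/kg group lay among them. It rose by 0.78 ± 0.21 (limma adjusted p = 0.00409) at 1500 mg/kg and by 0.82 ± 0.21 (limma adjusted p = 0.00221) at 2000 mg/kg. When only the compared groups were fitted, the limma adjusted p was 0.0777 at 1500 mg/kg and 0.0011 at 2000 mg/kg. Itgb1bp1, which binds the inner tail of the beta-1 chain, rose as well, by 0.43 ± 0.10 at 1500 mg/kg and 0.41 ± 0.10 at 2000 mg/kg (limma adjusted p = 0.000469 and 0.000749). Itgb1bp2, a chaperone known from muscle, fell at 2000 mg/kg by 0.73 ± 0.17 (limma adjusted p = 0.000507).

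Itgb4, the beta-4 chain that pairs with alpha-6 in hemidesmosomes, fell by 0.19 ± 0.05 at 1500 mg/kg and 0.21 ± 0.05 at 2000 mg/kg at 24 h. At 6 h it fell by 0.25 ± 0.05 at 1500 mg/kg and 0.28 ± 0.05 at 2000 mg/kg. At 6 h its ratios ran from -0.17 to -0.02 at 2000 mg/kg, against 0.17 to 0.33 in vehicle rats, with a clear gap, and the limma adjusted p was 2.51e-05. Itga7, a laminin receptor known from muscle, fell at 24 h by 0.47 ± 0.14 at 1500 mg/kg and by 0.39 ± 0.14 at 2000 mg/kg (limma adjusted p = 0.013 and 0.0369). The 1500 mg/kg call was lost without rat 9537 and the 2000 mg/kg call without any of 5 single rats, with a value of -0.26 without rat 8089. Itga1, Itga5, Itga6 and Itgam were not called at 24 h. Of these Itga6 had the largest difference, 0.31 ± 0.26 at 1500 mg/kg and 0.63 ± 0.26 at 2000 mg/kg (limma adjusted p = 0.0644 at the higher dose). Itgam, the alpha-M chain of neutrophils and macrophages, differed by 0.11 ± 0.23 at 1500 mg/kg and 0.20 ± 0.23 at 2000 mg/kg. Itgb2 and Itgal were not analysed here.

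At 24 h in all, 8 of the 61 genes rose and 11 fell at 1500 mg/kg, together 31.1%, against a background of 21.5% of all gene rows called, 10.2% higher and 11.4% lower. At 2000 mg/kg 7 rose and 15 fell, together 36.1%, against 24.3% of all gene rows called. The median difference over the 61 was -0.03 at 1500 mg/kg and -0.04 at 2000 mg/kg, against -0.01 over all gene rows at each dose. Falls made up 24.6% of the 61 at 2000 mg/kg, against 12.5% of all gene rows, and rises 11.5%, against 11.8%. At both doses 5 genes rose and 10 fell. When only the compared groups were fitted, the 1500 mg/kg count was 3, with none higher, namely Adamts7, Lamb2 and Lamb3, all lower, and without rat 9537 it was 12.

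Some markers of matrix-making cells also moved at 24 h, when 10.2% of all gene rows were called higher and 11.4% lower at 1500 mg/kg and 11.8% higher and 12.5% lower at 2000 mg/kg. Of 9 markers of hepatic stellate cells and fibroblasts, 1 rose and 3 fell at 1500 mg/kg and 3 fell at 2000 mg/kg, with Lrat lower by 1.36 ± 0.21 at 1500 mg/kg and 1.73 ± 0.21 at 2000 mg/kg. At each dose most of the 9 were not called. The mean of the 9 per rat ran from -0.31 to 0.00 at 1500 mg/kg and from -0.36 to -0.25 at 2000 mg/kg, against 0.01 to 0.14 in vehicle rats. This mean includes Lrat, and it was not taken without Lrat. Of 7 markers of sinusoidal endothelium, 2 fell at 1500 mg/kg and 3 at 2000 mg/kg, with a mean per rat of -0.42 to 0.11 at 1500 mg/kg and -0.45 to -0.03 at 2000 mg/kg, against -0.06 to 0.27 in vehicle rats. Of 8 markers of Kupffer cells and macrophages 4 fell at each dose and none rose, with a mean per rat of -0.43 to -0.03 at 1500 mg/kg and -0.37 to -0.08 at 2000 mg/kg, against -0.10 to 0.43 in vehicle rats. A ratio to a liver pool gives no absolute level, so that the absence of a marker cannot be read from it, and their part in the matrix values was not tested.

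At 3 h, 3 of the 61 rose and 1 fell at each high dose, together 6.56%. The background at 1500 mg/kg was 5.84% of all gene rows called, 3.39% higher and 2.44% lower, and at 2000 mg/kg it was 9.01%, 4.92% higher and 4.09% lower. Adamts1, a protease that cuts versican and aggrecan, had lowest, median and highest ratios of 0.31, 0.68 and 1.14 at 1500 mg/kg and 0.76, 1.002 and 1.12 at 2000 mg/kg, against -0.85, -0.24 and 0.10 in vehicle rats. It rose by 1.04 ± 0.22 (2.05-fold, limma adjusted p = 0.00119) at 1500 mg/kg and by 1.28 ± 0.22 (2.42-fold, limma adjusted p = 2.78e-05) at 2000 mg/kg, with every dosed rat above every vehicle rat. At 6 h its ratios overlapped, at -0.50 to -0.03 for 2000 mg/kg against -0.44 to 0.08 in vehicle rats, and the change in its difference between 3 h and 6 h at 2000 mg/kg was -1.40 ± 0.32 (limma adjusted p = 0.004). At 24 h it rose again at 2000 mg/kg, by 0.66 ± 0.22 (limma adjusted p = 0.0243), with a difference of 0.59 ± 0.22 at 1500 mg/kg (limma adjusted p = 0.0513). The 24 h call was lost without rat 5889, 8089, 1457 or 2483, the last pair being vehicle rats, and when only the compared groups were fitted (limma adjusted p = 0.244).

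Lamc1, the gamma-1 chain shared by most laminins, had 3 h ratios of 0.41, 0.64 and 1.09 at 1500 mg/kg and 0.46, 0.63 and 0.80 at 2000 mg/kg, against -0.29, -0.08 and 0.24 in vehicle rats. It rose by 0.70 ± 0.12 (limma adjusted p = 2.13e-05) at 1500 mg/kg and by 0.67 ± 0.12 (limma adjusted p = 2.84e-05) at 2000 mg/kg, with no overlap. Only 2 of its 5 probes were called there, and their differences at 1500 mg/kg spanned 0.02 to 1.36. Itgb3bp, which also names a centromere protein, rose at 3 h by 0.88 ± 0.21 (limma adjusted p = 0.00381) at 1500 mg/kg and by 0.75 ± 0.21 (limma adjusted p = 0.0129) at 2000 mg/kg, and its groups overlapped. Without rat 2730 its 2000 mg/kg call was lost, as it was without the rats whose arrays did not oppose each other (limma adjusted p = 0.114), which were 3 of the 6 in that group. The count at 2000 mg/kg rose to 7 without vehicle rat 5557.

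At 6 h, 1 of the 61 rose and 4 fell at 1500 mg/kg, together 8.2%, against a background of 6.88% of all gene rows called, 3.65% higher and 3.23% lower. At 2000 mg/kg 4 rose and 8 fell, together 19.7%, against 11.1% of all gene rows, 5.31% higher and 5.84% lower. All 5 genes called at 1500 mg/kg were called in the same direction at 2000 mg/kg. Besides Adamts7, Mmp16 and Itgb4, these were Itgae, the alpha-E chain of intraepithelial lymphocytes, which rose by 0.33 ± 0.10 at 1500 mg/kg and 0.41 ± 0.10 at 2000 mg/kg (limma adjusted p = 0.0262 and 0.00248), and Col5a2, a fibrillar type V chain. Col5a2 fell by 0.35 ± 0.11 at 1500 mg/kg and 0.40 ± 0.11 at 2000 mg/kg, where vehicle rat 3942 stood at 1.27 and the vehicle median was 0.24. Without that rat both calls were lost, with differences of -0.175 at 1500 mg/kg and -0.22 at 2000 mg/kg. The 1500 mg/kg call of Col5a2 was also lost without any of 4 other rats, and that of Itgae without rat 0644, 1376, 4550 or 9203. Mmp17, a lipid-anchored MMP, had 6 h ratios of 0.25, 0.59 and 0.84 at 2000 mg/kg, against -0.31, -0.25 and 0.20 in vehicle rats, and rose by 0.74 ± 0.16 (limma adjusted p = 0.000788) without overlap. It differed by 0.49 ± 0.16 at 1500 mg/kg and was not called there. Lamc1 was still higher at 2000 mg/kg, by 0.58 ± 0.12 (limma adjusted p = 0.000319), although 1 of its probes stood at -0.01, and Mmp14 still differed by -0.63 ± 0.16 (limma adjusted p = 0.0031, or 0.057 when only the compared groups were fitted). Itga11, a collagen receptor of fibroblasts, and Col4a4 fell at 2000 mg/kg by 0.21 ± 0.07 and 0.46 ± 0.16, both with a limma adjusted p close to the threshold (0.0393 and 0.0472). The Itga11 call was lost without any of 7 single rats and the Col4a4 call without any of 10. The 6 h count at 1500 mg/kg fell to 1 when only the compared groups were fitted, to 2 without rat 1376, and to 3 without rat 0644, 3942, 4550 or 8918.

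**Figure D3:**
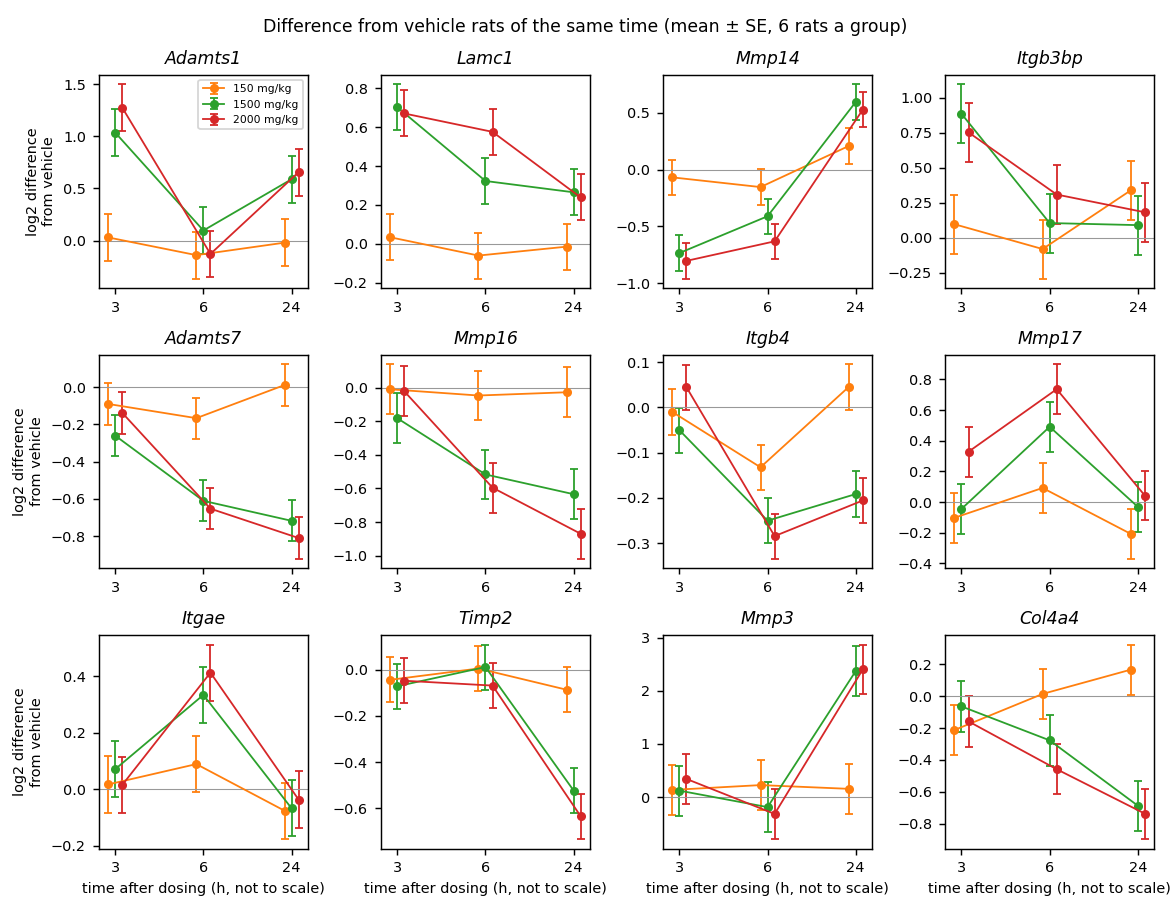
Difference in log2 ratio from the vehicle rats of the same time, mean ± SE with 6 rats a group, at 3, 6 and 24 h (spacing not to scale) for 150, 1500 and 2000 mg/kg. The SE is limma's, from a variance pooled over all 12 groups, and is too small for Mmp3 at 24 h, where the dosed rats spread more. Adamts1 and Lamc1 are highest at 3 h, Mmp17 and Itgae at 6 h, Adamts7 and Mmp16 are low from 6 h on, Timp2 and Mmp3 move at 24 h, and Mmp14 crosses 0 between 6 h and 24 h.

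At 150 mg/kg none of the 61 genes was called by limma at 3, 6 or 24 h, where the background was 0% of all gene rows. The differences ran from -0.54 to 0.28 at 3 h, -0.40 to 0.42 at 6 h and -0.54 to 0.38 at 24 h. An unadjusted p under 0.05 was reached by 1, 4 and 1 of the 61 at the 3 times. The extremes of -0.54 at 3 h and 24 h were both Col17a1, with a single probe.

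Between 2000 and 1500 mg/kg none of the 61 differed past limma's threshold at any time, where the background was 0.0105% of gene rows at 3 h, 0.00527% at 6 h and 0% at 24 h. An unadjusted p under 0.05 was reached by 2, 4 and 4 of the 61. The 95% interval for 2000 minus 1500 mg/kg at 24 h was -0.89 to 0.95 for Mmp3, -0.81 to 0.86 for Mmp12, -0.30 to 0.08 for Timp2 and -0.31 to 0.12 for Adamts7. The intervals for Mmp3 and Mmp12 were therefore wide, and those for Timp2 and Adamts7 narrower. Each rests on a variance pooled over all 12 groups, and the dosed rats spread more than that. The SD of Mmp3 was 1.95 at 1500 mg/kg and 1.73 at 2000 mg/kg, against 0.16 in vehicle rats. For Mmp12 it was 1.61 at 1500 mg/kg and 1.71 at 2000 mg/kg, against 0.36 in vehicle rats. The intervals are thus too narrow for the rats compared, above all for Mmp3 and Mmp12.

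Over the course, 33 of the 61 genes were called in at least 1 comparison with vehicle and 28 in none. The 33 are 54.1%, against 38.7% of all gene rows called in at least 1 of these comparisons. They were 12 of 17 MMPs, 6 of 15 integrins, 5 of 14 collagens, 3 of 5 laminins, 3 of 4 ADAMTS proteases, 1 of 2 TIMPs and 3 of the 4 integrin-associated genes. In 19 of the 33 the calls were at 24 h alone, in 5 at 6 h alone and in 1, Itgb3bp, at 3 h alone. The test of a change between 6 h and 24 h called 4 of the 61 upward and 3 downward at 1500 mg/kg, together 11.5%, against 9.51% of all gene rows, 4.25% upward and 5.26% downward. At 2000 mg/kg it called 4 upward and 6 downward, together 16.4%, against 13% of all gene rows, 6.53% upward and 6.45% downward. The test between 3 h and 6 h called none at 1500 mg/kg, against 0.869% of all gene rows, and 3, all downward, at 2000 mg/kg, against 3.46% of all gene rows, 1.96% upward and 1.5% downward.

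**Figure D4:**
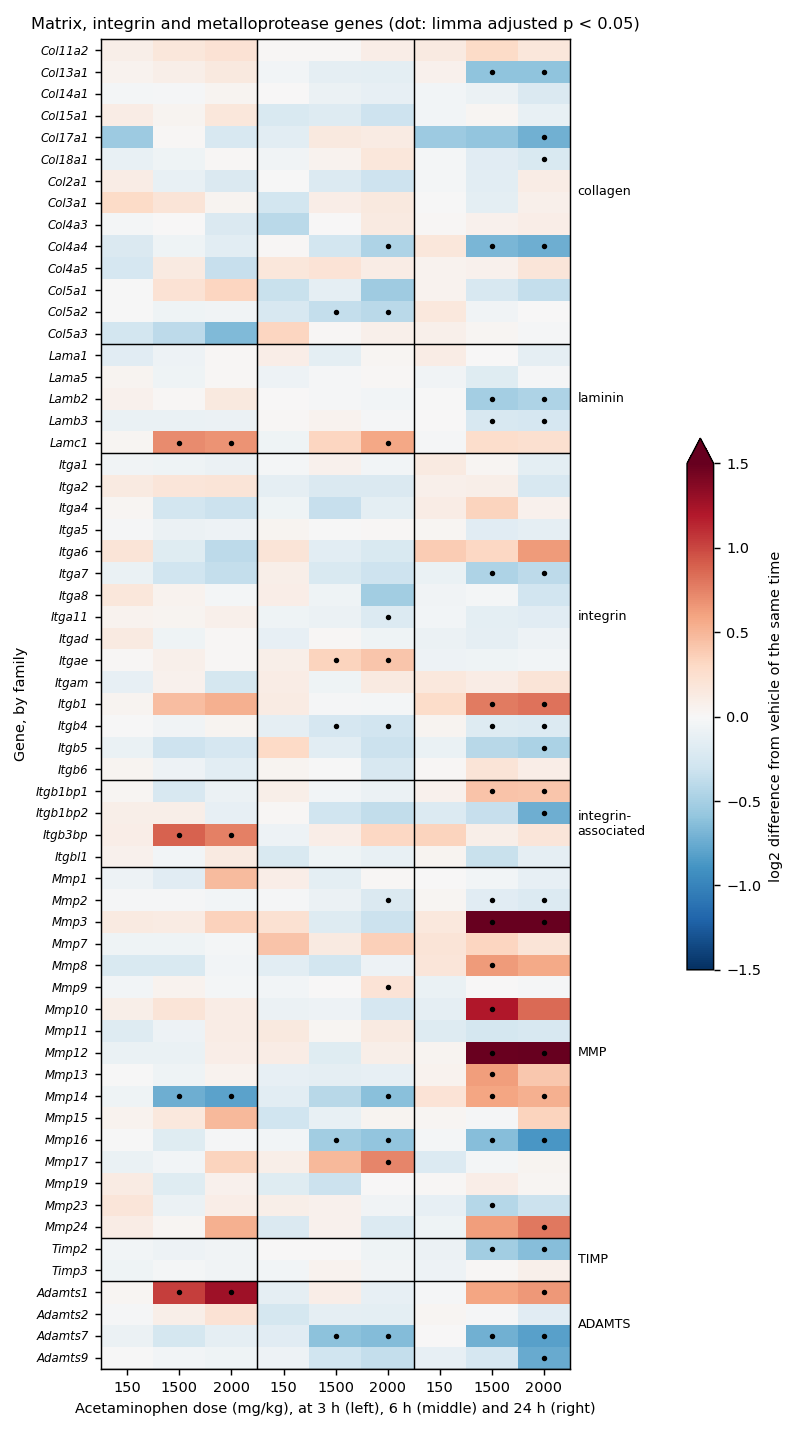
Difference in log2 ratio from the vehicle rats of the same time for the 61 genes, in rows by family, with doses of 150, 1500 and 2000 mg/kg from left to right within 3, 6 and 24 h. Colour runs from blue (lower) to red (higher) and is held at 1.5, which Mmp3 passes with 2.37 and 2.41, and dots mark limma adjusted p under 0.05, of which the 150 mg/kg columns hold none.

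Genes that make or surround the matrix outside the 61 moved in both directions at 24 h. Of 16 other matrix proteins measured, 3 rose and 6 fell at 1500 mg/kg and 2 rose and 5 fell at 2000 mg/kg. The background for this and the lists that follow was 21.5% of all gene rows called at 1500 mg/kg, 10.2% higher and 11.4% lower, and 24.3% at 2000 mg/kg, 11.8% higher and 12.5% lower. The smallest p at each dose belonged to Vtn, the hepatocyte-made vitronectin, and Fbln5, an elastic-fibre protein. Vtn fell by 0.55 ± 0.09 at 1500 mg/kg and 0.63 ± 0.09 at 2000 mg/kg. Fbln5 fell by 0.86 ± 0.12 at 1500 mg/kg and 0.84 ± 0.12 at 2000 mg/kg. Of the 4 plasminogen-system genes, which feed MMP activation, none rose and 2 fell at each dose. Serpine2, an inhibitor of serine proteases, fell by 0.86 ± 0.12 at 1500 mg/kg and 1.01 ± 0.12 at 2000 mg/kg. Plg, plasminogen itself, fell by 0.50 ± 0.11 at 1500 mg/kg and 0.61 ± 0.11 at 2000 mg/kg. Of 10 collagen-processing genes, 2 rose at 1500 mg/kg, P4hb and P4ha2, subunits of the enzyme that hydroxylates collagen prolines, by 0.54 ± 0.10 and 0.42 ± 0.11. At 2000 mg/kg 2 of the 10 rose and 2 fell. Of 11 adhesion adaptors 1 rose at 1500 mg/kg and 2 at 2000 mg/kg, of 11 TGF-beta genes 1 rose and 1 fell at each dose, and of 2 ADAM proteases 1 fell at each dose.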

How the data were processed

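RNA of 72 rat livers was hybridised on 144 arrays. Per the labels, each array held a rat and the vehicle pool of its time in opposite dyes. The authors deposited 1 value per probe and array, taken as a log10 ratio of Cy5 over Cy3. The sources used here do not give its base or direction, nor how background and dyes were handled. Doses came from the deposited key, as other text values in mg/kg. Array medians were at or within 0.000258 of 0, 7.74% of values were exactly 0 and 0.836% blank.

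Values were turned to log2 of rat over pool, the 2 arrays of a rat were averaged, then probes of a gene. GEO's platform annotation gave 1 symbol to 12750 of 22075 probes, several to 5 and none to 9320; rows with values in at least 36 rats were kept, 18978 in all. The 12 group means were fitted with limma 3.58.1 in R 4.3.3, two-sided, with Benjamini-Hochberg adjustment over all rows, and the procedure was tested on simulated data. Python 3.11.15, pandas 2.3.3, NumPy 2.4.6 and matplotlib 3.10.9 did the rest. Each rat is 1 replicate. The number of arrays limits the precision. The 2 arrays of 12 rats did not oppose each other (correlation above -0.1 once the dye effect was removed), and 49 arrays shared 500 blank probes, a possible batch of unstated origin.

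The rule on symbols uses no measured value, but this gene family and the gene lists were taken up with earlier results of these data known. Named are, per comparison with vehicle, at most 8 genes that rose and 8 that fell with the largest difference, at most 4 each way between times or doses, 22 measured standard genes of each role, and the 2 smallest p of each list. Mmp1 and Mmp7 were added after their values were seen. Alternatives were dye orientation, centring, zeros as missing, quality weights, opposing arrays, the blank probes, the compared groups alone, a fold change of 1.5, and each rat left out.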

Additional observations from a re-analysis of the deposited data

Results flagged for a closer look

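In 9 of 99 groups of 6 rats, taken over the genes and comparisons called, 1 rat stood apart from the other 5 by Dixon's criterion, where chance gives about 1 in 20 groups. They were vehicle rat 5557 at 3 h for Mmp14 (ratio 0.43, next -0.04), and at 6 h vehicle rat 9203 for Itgb4 (0.33), vehicle rat 1871 for Mmp17 (0.20), vehicle rat 3942 for Mmp2 (-0.19) and rat 5886 of the 2000 mg/kg group for Col4a4 (-0.85). At 24 h they were rats 9540 for Col17a1 (-0.89) and 2015 for Itgb1bp2 (-1.42) of the 2000 mg/kg group, and vehicle rats 5999 for Mmp8 (-0.85) and 1457 for Col18a1 (-0.37).

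The difference from vehicle changed between times, by limma's test of that change, in 20 cases. From 6 h to 24 h at 1500 mg/kg it changed by 2.57 for Mmp3, 1.01 for Mmp14, 0.68 for Itga4, 0.47 for Itgb1bp1, -0.29 for Lamb3, -0.49 for Lamb2 and -0.53 for Timp2. From 6 h to 24 h at 2000 mg/kg it changed by 2.72 for Mmp3, 1.16 for Mmp14, 0.84 for Itgb1, 0.50 for Itgb1bp1, -0.24 for Lamb3, -0.40 for Col18a1, -0.42 for Lamb2, -0.45 for Itgae, -0.57 for Timp2 and -0.69 for Mmp17. From 3 h to 6 h at 2000 mg/kg it changed by -1.40 for Adamts1, -0.51 for Adamts7 and -0.33 for Itgb4. Itga4, an alpha chain of lymphocytes and monocytes, was called in no comparison with vehicle at a single time.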

How the results depend on the processing

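No difference reversed under the alternatives run. Of 60 calls of named genes against vehicle, 31 held when only the compared groups were fitted and 48 held without rats whose arrays did not oppose. Counts of the 61 genes called that moved by over 1.5 times are as follows. At 6 h after 1500 mg/kg, with 5 called, the count was 3 on Cy5 arrays, 3 on Cy3 arrays, 1 at a fold change of 1.5, 1 with only the compared groups, 2 in rats without the shared blank probes, and 2 to 7 with a rat left out. At 6 h after 2000 mg/kg, with 12 called, it was 7 on Cy5 arrays, 7 without rats whose arrays did not oppose, 4 at the fold change, 3 in rats without the blank probes, 6 in rats with them, and 9 to 12 with a rat left out. At 24 h after 1500 mg/kg, with 19 called, it was 11 at the fold change, 3 with only the compared groups, 1 in rats without the blank probes, and 12 to 24 with a rat left out. At 24 h after 2000 mg/kg, with 22 called, it was 13 at the fold change, 13 in rats without the blank probes, 11 in rats with them, and 18 to 25 with a rat left out. At 3 h it was 4 in every fit with a rat left out at 1500 mg/kg and 3 to 7 at 2000 mg/kg, and at 150 mg/kg it was 0 in each such fit. Quality weights gave 3 in place of 0 for 6 h against 3 h at 1500 mg/kg and 6 in place of 3 at 2000 mg/kg. Splits by the blank probes hold fewer rats, so that the part of rat number and that of the blank probes cannot be told apart there. For the other settings the cause was not tested. Mmp3 at 24 h differed by 1.87 and 3.09 (1500 and 2000 mg/kg) in rats without the blank probes, by 2.84 and 1.69 in rats with them (limma adjusted p = 0.0632 and 0.337), and by 2.41 and 2.44 with the blank probes as a covariate. With zeros as missing, Mmp10 lost its call (limma adjusted p = 0.104) and Mmp8 had too few values for a fit. No paired analysis was possible because the rats carry individual numbers that no other group shares.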

Other observations

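Some values at 3 h and 6 h lay outside the 61 genes. Ccn2, a matricellular protein and TGF-beta target, rose at 3 h by 1.97 ± 0.33 at 1500 mg/kg and 2.27 ± 0.33 at 2000 mg/kg. At 6 h it rose by 1.52 ± 0.33 at 1500 mg/kg and 1.46 ± 0.33 at 2000 mg/kg. Pdgfrb, a receptor of stellate cells, fell at 3 h by 0.75 ± 0.16 at 1500 mg/kg and 0.64 ± 0.16 at 2000 mg/kg. At 6 h it fell by 0.98 ± 0.16 at 1500 mg/kg and 1.09 ± 0.16 at 2000 mg/kg. Pdgfrb belongs to the 9 markers of stellate cells and fibroblasts, whose mean per rat moved less. At 3 h the median of that mean was -0.12 at 1500 mg/kg and -0.11 at 2000 mg/kg, against 0.05 in vehicle rats. At 6 h the median was -0.14 at 1500 mg/kg and -0.18 at 2000 mg/kg, against 0.06 in vehicle rats. Of the 11 TGF-beta genes measured, 1 rose and 4 fell at 6 h after 2000 mg/kg, the falls being Smad7, Smad3, Smad2 and Ltbp1, where 5.31% of all gene rows were called higher and 5.84% lower.

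Values of exactly 0 were unevenly spread over the 61 genes. They made up 77.1% of the values of Mmp8, 38.9% of Mmp7, 34.7% of Itgam, 34.0% of Mmp10, 31.9% of Mmp19 and 31.6% of Col18a1, against 6.00% over the 91 probes. For Mmp10 at 24 h, 0 of 12 array values were exactly 0 at 1500 mg/kg and 3 of 12 at 2000 mg/kg, against 5 of 12 in vehicle rats.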
